A study of Mus musculus with 6 samples.

Results

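The inhibitory interneurons of the cerebellum and its unipolar brush cells were described by 9 genes among the 53715 mouse genes measured in cerebella from mice on a low-manganese (low-Mn) or a normal-Mn diet. The genes were listed by name: Gad1, Gad2, Slc32a1, Slc6a5, Sorcs3, Pax2, Tfap2b, Lypd6 and Eomes. All 9 were found by gene ID in the GENCODE M21 annotation of GRCm38, and all 9 were among the 16123 genes with enough counts to be tested. The comparison asked whether their transcript levels differed after 2 weeks of dietary Mn depletion.

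Cerebella came from male C57BL/6 mice, 3 fed a diet with Mn at 0 ppm and 3 fed a diet with Mn at 35 ppm, each for 2 weeks. The labels name no mutant allele and no other agent in either group. Both diets were purified, and by the methods a trace of Mn was left in the low-Mn one. The labels call the mice adult, and the methods describe the 3 mice of a diet as biological replicates, while the wording beside one of the study's plots calls the triplicates technical, in which case p-values would measure only technical spread. Each library held polyadenylated RNA of the whole cerebellum, 14548336 to 21277469 assigned counts in total. The tissue carried the genes of Purkinje neurons (16 of 16 listed genes tested, summed levels of 10130 to 10920 CPM, counts scaled to a common library size) and of granule neurons (16 of 16, 7468 to 7975 CPM). In such bulk tissue, fewer cells of a type and less RNA per cell cannot be told apart.

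In the cerebellar cortex, stellate and basket cells of the molecular layer inhibit Purkinje neurons, and Golgi cells inhibit granule neurons. These cells release GABA, and many Golgi cells release glycine as well. Both transmitters are loaded into synaptic vesicles by the same transporter. Unipolar brush cells are different in kind: they are excitatory, use glutamate, lie in the granular layer and are most abundant in the lobules that receive vestibular input.

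No gene of the 9 passed the test between the diets. Of the 9, 7 had a lower fitted level on the low-Mn diet and 2, Eomes and Slc6a5, a higher one, with a median log2 fold change of -0.08. Over all tested genes, 50.8% had a fold change below 0, and the median was -0.003. Each gene was tested between the diets by the quasi-likelihood method of edgeR, with Benjamini-Hochberg adjustment over all tested genes and a threshold of 0.05. Of all tested genes, 0.595% passed, 0.416% as higher and 0.18% as lower on the low-Mn diet. At an unadjusted p under 0.05 stood 1 of the 9 genes, Eomes, against 12.1% of all tested genes. In 1 of the 9, Gad1, the 3 low-Mn libraries lay outside the range of the 3 normal-Mn libraries, against 17.1% of all tested genes. DESeq2 and limma-voom also called none of the 9, each with 2 genes at an unadjusted p under 0.05. By edgeR that number was 4 with upper quartile scaling, 4 with no filter on low counts and 3 without normal-Mn replicate 1. DESeq2 gave no adjusted p for Pax2 and Eomes.

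**Figure D1:**
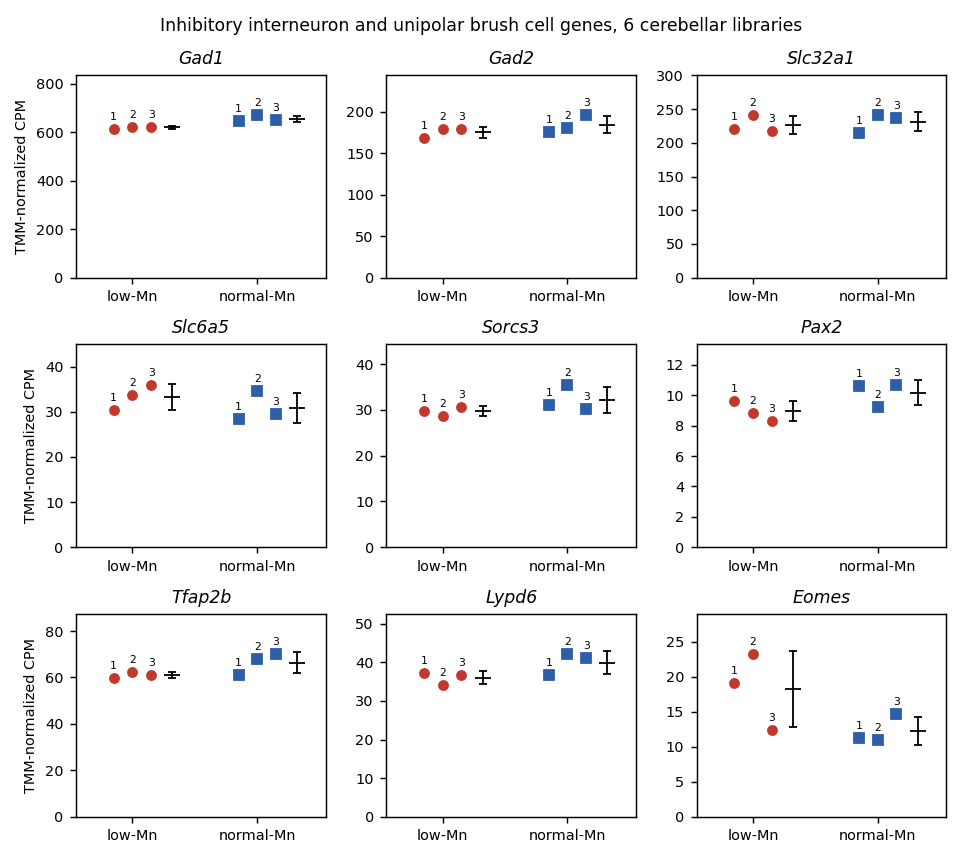
Level of each of the 9 genes (TMM-normalized CPM, axes from 0) in the 3 low-Mn libraries (red circles) and the 3 normal-Mn libraries (blue squares), with replicate numbers beside the points and the mean ± SD in black. The diets overlapped in 8 of the 9 genes, and Eomes had the widest spread, from 10.9 to 23.2 CPM.

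Per kilobase of annotated exon, which allows levels of different genes to be set beside each other, the 9 genes fell into a wide order. Gad1 had the highest mean over the 6 libraries, 83.4 CPM per kilobase, and its range of 80.1 to 87.7 overlapped that of Slc32a1, at 81.6 (76.7 to 86.1). Gad2 followed at 30.6 CPM per kilobase (28.5 to 33.4), without overlap with its neighbours on either side. Lypd6 at 10.2 (9.14 to 11.3) and Tfap2b at 10.1 (9.4 to 11) CPM per kilobase could not be ordered beyond their spread. The same held for Slc6a5 at 4.46 (3.96 to 4.99), Sorcs3 at 4.34 (4.01 to 4.97) and Eomes at 3.67 (2.62 to 5.59). Pax2 was lowest, at 1.77 CPM per kilobase (1.54 to 1.98). The order thus put the transcripts for making and packing GABA above those that mark subtypes of interneurons. Purkinje neurons also make GABA, so in whole cerebellum the levels of Gad1, Gad2 and Slc32a1 are not those of interneurons alone.

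Gad1 and Gad2 encode the 2 glutamate decarboxylases that make GABA, and both lie on chromosome 2. Gad1 (ENSMUSG00000070880, chr2:70553072-70602014, plus strand, 21 exon blocks) was at 612, 623 and 623 CPM in low-Mn replicates 1 to 3 and at 645, 670 and 649 CPM in normal-Mn replicates 1 to 3. Every low-Mn library was below every normal-Mn library, but the gap was small, 619 ± 6.75 against 655 ± 13.1 CPM (SD, n = 3 each). The difference was -5.42%, with a 95% interval from -10.8% to 0.255% (log2 fold change -0.08, SE 0.0403, adjusted p = 0.433 by edgeR). Gad1 was the most closely measured of the 9, with 9071 to 14070 counts per library and a within-diet SD of 0.0232 on the log2 scale. The median within-diet SD was 0.0856 over the 11685 genes that averaged 100 counts or more.

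Gad2 (chr2:22622205-22693874, plus strand) was at 168, 179 and 179 CPM on the low-Mn diet and at 176, 181 and 196 CPM on the normal-Mn diet. The diets overlapped, and normal-Mn replicate 3 was the highest library. The means were 175 ± 6.61 and 185 ± 10.4 CPM (SD, n = 3 each), a difference of -5.01% with a 95% interval from -11.6% to 2.05% (adjusted p = 0.591 by edgeR). Gad1 exceeded Gad2 by 3.54 times in CPM and by 2.73 times per kilobase of exon. The log2 ratio of Gad1 to Gad2 was 1.87, 1.80 and 1.80 in low-Mn replicates 1 to 3 and 1.87, 1.89 and 1.73 in normal-Mn replicates 1 to 3. Its diet means differed by -0.00664 (exact two-sided permutation test, p = 0.8, with 0.1 the smallest p that 3 libraries against 3 can give), and the sign of that difference turned when single libraries were left out.

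Slc32a1 encodes the vesicular transporter that carries both GABA and glycine (chr2:158610767-158615748, plus strand). It was at 220, 241 and 217 CPM on the low-Mn diet and at 215, 241 and 237 CPM on the normal-Mn diet. The highest library of each diet stood at the same level, and the lowest was normal-Mn replicate 1. The difference was -2.18%, with a 95% interval from -9.29% to 5.49% (adjusted p = 0.866 by edgeR). Of its exons, 24.9% overlap Gm14205, a gene on the opposite strand, and 23.7% of its exonic 50-mers occur there too. No source used here gives the strand setting of the counting, and the expected counts of Slc32a1 were not whole in any of the 6 libraries, so its level is uncertain to that extent. Gm14205 itself was at 4.36, 6.39 and 8.2 CPM on the low-Mn diet and at 3.65, 4.71 and 0.379 CPM on the normal-Mn diet, small beside Slc32a1.

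Slc6a5 encodes the neuronal glycine transporter and, within the cerebellar cortex, marks glycinergic interneurons such as Golgi and Lugaro cells. At chr7:49910146-49963856 on the plus strand, it was at 30.3, 33.7 and 36.0 CPM on the low-Mn diet and at 28.5, 34.7 and 29.6 CPM on the normal-Mn diet. The diets overlapped, with low-Mn replicate 3 the highest library. The means were 33.3 ± 2.83 and 30.9 ± 3.29 CPM (SD, n = 3 each), a difference of 7.65% with a 95% interval from -4.97% to 21.9% (adjusted p = 0.681 by edgeR). The log2 ratio of Slc6a5 to Slc32a1 was -2.86, -2.84 and -2.59 on the low-Mn diet and -2.91, -2.80 and -3.00 on the normal-Mn diet, 0.141 higher on the low-Mn diet with overlap (exact two-sided permutation test, p = 0.3).

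Glycinergic neurons of the cerebellar nuclei and brain stem also express Slc6a5. Hoxb5, a brain stem marker that the cerebellum itself lacks, was at 0.639, 0 and 1.60 CPM in low-Mn replicates 1 to 3 and at 0.281, 0.238 and 0 CPM in normal-Mn replicates 1 to 3. Hoxa5 was at 0.291, 0.275 and 0.678 CPM against 0.14, 0 and 0 CPM. The 4 listed Hox genes summed to 1.34, 1.1 and 3.39 CPM on the low-Mn diet and to 0.515, 0.428 and 0.759 CPM on the normal-Mn diet, and 3 of them were highest in low-Mn replicate 3, the library with the most Slc6a5, and the other, Hoxb3, in normal-Mn replicate 3. The 16 listed brain stem and nuclear genes other than Slc6a5, which include these 4 Hox genes, did not share that order as a whole. The 3 of them highest in low-Mn replicate 3 were all Hox genes, and 8, Hoxb3 among them, were highest in normal-Mn replicate 3. The part of these genes in the level of Slc6a5 was not tested. Of the 17 listed genes of brain stem and nuclear neurons, Slc6a5 included, 9 could be tested and none passed (median log2 fold change -0.167). These tested genes summed to 491.7 to 530.9 CPM on the low-Mn diet and to 480.3 to 537.9 CPM on the normal-Mn diet. The smallest p among them belonged to Spp1, at 23.4 ± 2.82 against 31 ± 5.58 CPM (SD, n = 3 each), with overlap (log2 fold change -0.40, adjusted p = 0.118 by edgeR). Spp1 passed as lower with no filter on low counts (adjusted p = 0.000954) and without normal-Mn replicate 1 (adjusted p = 0.036).

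Pax2 and Tfap2b encode transcription factors of the lineage that gives rise to cerebellar inhibitory interneurons. Pax2, transient in immature interneurons and kept in adult Golgi cells (chr19:44756045-44837871, plus strand), was at 9.65, 8.86 and 8.33 CPM on the low-Mn diet and at 10.6, 9.24 and 10.7 CPM on the normal-Mn diet. The diets overlapped through normal-Mn replicate 2. The difference was -12%, with a 95% interval from -27.3% to 6.57% (adjusted p = 0.632 by edgeR). With 129 to 226 counts per library, Pax2 had the fewest counts of the 9.

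Tfap2b (chr1:19208914-19238576, plus strand) was at 59.6, 62.5 and 61.2 CPM on the low-Mn diet and at 61.2, 67.9 and 70 CPM on the normal-Mn diet. Normal-Mn replicate 1 lay among the low-Mn libraries, and the other two normal-Mn libraries lay above them. The difference was -7.92%, with a 95% interval from -15.6% to 0.463% (adjusted p = 0.435 by edgeR).

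Sorcs3, a sorting receptor of the VPS10 domain family, and Lypd6, a membrane-anchored Ly6 protein, were taken as genes of molecular layer interneurons. Lypd6 (chr2:50066429-50193569, plus strand) was at 37.3, 34.1 and 36.6 CPM on the low-Mn diet and at 36.6, 42.1 and 41.0 CPM on the normal-Mn diet, the same arrangement as in Tfap2b. The difference was -9.7%, with a 95% interval from -18.7% to 0.305% (adjusted p = 0.428 by edgeR). Sorcs3 (chr19:48206025-48805505, plus strand) was at 29.8, 28.6 and 30.7 CPM on the low-Mn diet and at 31.0, 35.5 and 30.1 CPM on the normal-Mn diet. Here normal-Mn replicate 2 stood above the other 5 libraries, and the difference was -7.81%, with a 95% interval from -17.8% to 3.42% (adjusted p = 0.601 by edgeR).

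Eomes encodes the T-box transcription factor that marks unipolar brush cells and their rhombic lip precursors (chr9:118478212-118486132, plus strand). It was at 19.1, 23.2 and 12.4 CPM in low-Mn replicates 1 to 3 and at 11.2, 10.9 and 14.6 CPM in normal-Mn replicates 1 to 3. Low-Mn replicates 1 and 2 were above every other library, and low-Mn replicate 3 lay inside the normal-Mn range. The means were 18.2 ± 5.47 and 12.2 ± 2.03 CPM (SD, n = 3 each), and the difference of 49.1% had a 95% interval from 17.3% to 89.6% (log2 fold change 0.58, SE 0.166, unadjusted p = 0.00242, adjusted p = 0.126 by edgeR).

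Eomes ranked 309 of the 16123 genes by p. Its highest library exceeded its lowest by 2.13 times, against 1.10 to 1.29 times for the other 8 genes, and its within-diet SD of 0.364 on the log2 scale was above the 90th percentile of 0.185. Single libraries decided the call. Without low-Mn replicate 3 the log2 fold change was 0.79 (adjusted p = 0.0122 by edgeR), and without low-Mn replicate 2 it was 0.37 (adjusted p = 0.466). With no filter on low counts Eomes also passed (log2 fold change 0.57, adjusted p = 0.000245).

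The other genes listed for unipolar brush cells were read beside it. Of 17 such genes, Eomes included, 14 were tested and none passed, 8 had a fold change below 0, and the median log2 fold change was -0.051. Lmx1a, a rhombic lip factor that unipolar brush cells keep, was at 1.45, 1.51 and 2.28 CPM on the low-Mn diet and at 2.06, 2.76 and 1.57 CPM on the normal-Mn diet, lowest in the same low-Mn replicates in which Eomes was highest, on 22 to 58 counts per library (log2 fold change -0.29, adjusted p = 0.782 by edgeR). Calb2, which encodes calretinin of one unipolar brush cell subtype and of granule neurons, was at 316, 314 and 302 CPM against 358, 345 and 301 CPM (log2 fold change -0.11, adjusted p = 0.43).

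After Eomes, the smallest p values of the list belonged to Plcb1, a phospholipase of receptor signaling, with a fold change of -0.18 on the log2 scale and adjusted p = 0.228, and to Pld5, with -0.17 and adjusted p = 0.303 (edgeR). Plcb4, another phospholipase, which Purkinje neurons share, was at 288, 282 and 304 CPM on the low-Mn diet and at 288, 263 and 266 CPM on the normal-Mn diet, with overlap and a fold change in the direction of Eomes (log2 fold change 0.10, adjusted p = 0.424).

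**Figure D2:**
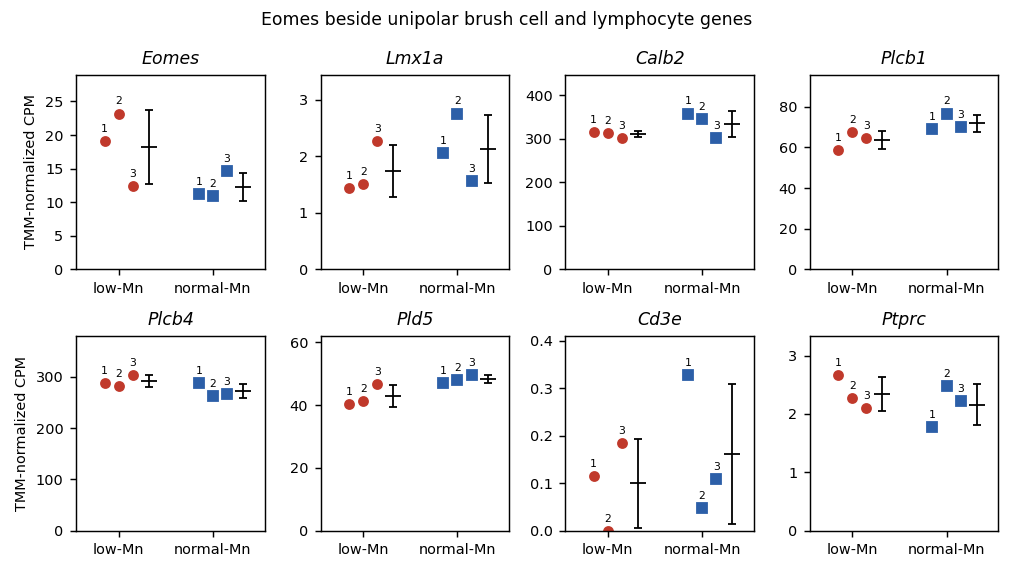
Levels (TMM-normalized CPM, axes from 0) of Eomes, of 5 other genes listed for unipolar brush cells (Lmx1a, Calb2, Plcb1, Plcb4, Pld5) and of the leukocyte genes Cd3e and Ptprc in the low-Mn (red circles) and normal-Mn (blue squares) libraries, with replicate numbers and the mean ± SD in black. The high Eomes levels of low-Mn replicates 1 and 2 were not matched by high Lmx1a in the same libraries.

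Eomes is also expressed by T and natural killer lymphocytes, so the genes of those cells were read beside it. Of 14 listed lymphocyte genes, Eomes included, 2 had enough counts to be tested, Eomes and the common leukocyte gene Ptprc, and neither passed. Ptprc was at 2.35 ± 0.296 CPM on the low-Mn diet and 2.16 ± 0.353 CPM on the normal-Mn diet (SD, n = 3 each). The 12 other genes were at or near 0, none above 0.428 CPM in any library, and together summed to 1.16, 0.481 and 0.74 CPM on the low-Mn diet and to 1.17, 1.38 and 1.03 CPM on the normal-Mn diet. Among them Cd3e did not exceed 0.328 CPM. Of the 12, 2 were higher in every low-Mn library, Cd3d (0.174, 0.0687 and 0.185 against 0.0468, 0 and 0 CPM) and Cd3g (0.349, 0.137 and 0.123 against 0, 0 and 0.0542 CPM), and 2 were lower in every low-Mn library, Gzmb and Prf1, all 4 named after their values were seen. The counts behind them were 3, 1 and 3 against 1, 0 and 0 for Cd3d and 6, 2 and 2 against 0, 0 and 1 for Cd3g. Gzmb and Prf1 had at most 9 and 4 counts in a library. None of the 12 was tested, so the 17.1% of tested genes without overlap does not cover them. Eomes and Ptprc together summed to 14.49 to 25.5 CPM on the low-Mn diet and to 13.01 to 16.8 CPM on the normal-Mn diet. Most of this was Eomes.

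Of the 16 listed rhombic lip factors, Eomes and Lmx1a among them, 14 were tested and none passed (median log2 fold change -0.022). Tbr1, a T-box factor related to Eomes, was lower in every low-Mn library but did not exceed 1.08 CPM in any library, with a log2 fold change of -0.95 (SE 0.46, adjusted p = 0.416 by edgeR). Zic2, a zinc finger factor of granule neurons and their precursors, was at 203 ± 1.87 against 216 ± 7.64 CPM (SD, n = 3 each, log2 fold change -0.09, adjusted p = 0.423).

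The 19 genes listed for molecular layer interneurons, which include Sorcs3, Tfap2b and Lypd6, were all tested and none passed. Of these, 13 had a fold change below 0, 4 had an unadjusted p under 0.05 (12.1% of all tested genes), and 3 had all low-Mn libraries below all normal-Mn libraries (8.32% of all tested genes). The median log2 fold change was -0.105. The smallest p belonged to Grin3a, an NMDA receptor subunit, at 37.0, 34.0 and 37.3 CPM on the low-Mn diet and 40.5, 45.8 and 45.8 CPM on the normal-Mn diet (log2 fold change -0.28, SE 0.0714, adjusted p = 0.0757 by edgeR).

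Kit, the receptor tyrosine kinase of stellate and basket cells, was at 306, 300 and 318 CPM against 330, 356 and 349 CPM (log2 fold change -0.16, adjusted p = 0.1), and DESeq2 called it, at an adjusted p of 0.0152. With no filter on low counts, 3 of the 19 genes passed as lower by edgeR, Grin3a (adjusted p = 0.0106), Kit (adjusted p = 0.0153) and Trim67 (adjusted p = 0.0456). Prkcd, a protein kinase C isoform, overlapped between the diets (log2 fold change -0.17, adjusted p = 0.214). Pvalb, the calcium buffer parvalbumin, which Purkinje neurons share, was at 682 ± 19 and 677 ± 37 CPM (SD, n = 3 each, log2 fold change 0.01, adjusted p = 0.951), and was named after its values were seen.

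**Figure D3:**
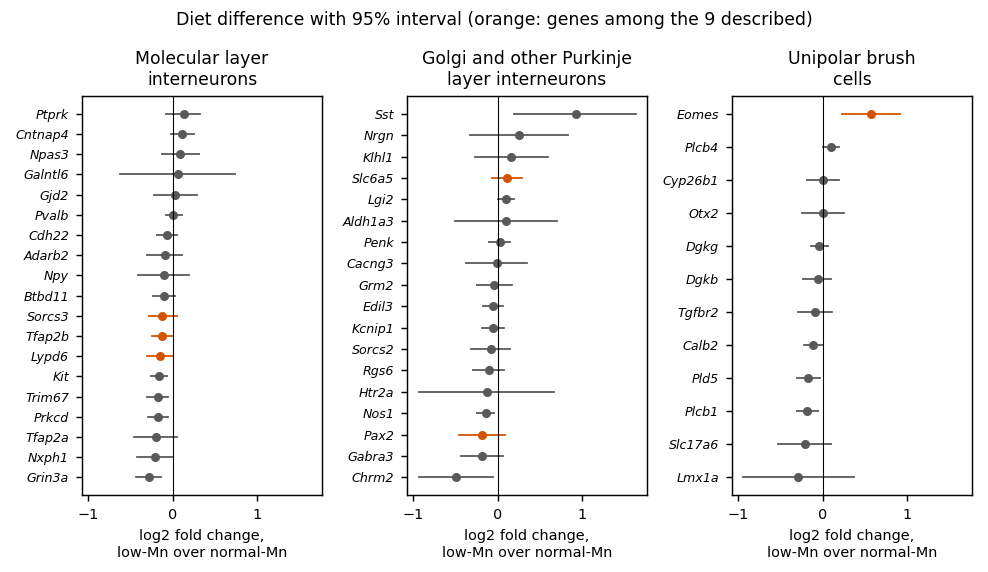
Log2 fold change between the diets (above 0, higher in low-Mn libraries) of the tested genes listed for molecular layer interneurons (19), for Golgi and Purkinje layer interneurons (18) and for unipolar brush cells (12 of the 14), with 95% intervals from the edgeR fit of 3 against 3 libraries. Orange marks genes among the 9 described, and no gene in the 3 panels passed at an adjusted p under 0.05.

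The libraries of the normal-Mn diet were not alike in these genes. In 7 of the 19 molecular layer interneuron genes, and in 3 of the 9 described, normal-Mn replicates 2 and 3 were above every low-Mn library while normal-Mn replicate 1 was not, an arrangement that 5.85% of all tested genes had. Tfap2b and Lypd6 count in both. The arrangement was picked after the values were seen. It held in 3 of the 18 tested genes listed for Golgi and Purkinje layer interneurons and in 1 of the 14 for unipolar brush cells. For each library, the median over the 19 genes of the deviation from the mean of the 6 libraries was -0.066, 0.007 and -0.045 (log2) in low-Mn replicates 1 to 3 and -0.047, 0.148 and 0.101 in normal-Mn replicates 1 to 3. Normal-Mn replicate 1 thus stood with the low-Mn libraries. The same medians over the 9 genes were -0.055, -0.025 and -0.05 on the low-Mn diet and -0.047, 0.077 and 0.058 on the normal-Mn diet.

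Without normal-Mn replicate 1 the median log2 fold change of the 19 genes was -0.175, and 2 of them passed as lower on the low-Mn diet, Grin3a (adjusted p = 0.0478 by edgeR) and Trim67 (adjusted p = 0.0441). Without normal-Mn replicate 2 the median was -0.042 and none passed. Other lists had normal-Mn replicate 1 among the low-Mn libraries as well. In the GABA and glycine list the medians were -0.06, 0 and 0.001 on the low-Mn diet and -0.03, 0.037 and 0.06 on the normal-Mn diet, and in the brain stem and nuclear list -0.144, 0.004 and 0.045 against -0.062, 0.115 and 0.399. The medians of the Purkinje neuron list stayed between -0.017 and 0.013. In the oligodendrocyte list the median of every low-Mn library was below that of every normal-Mn library. Of its 16 genes, 12 had all low-Mn libraries below all normal-Mn libraries (8.32% of all tested genes). The 16 genes summed to 7747 to 8073 CPM on the low-Mn diet and 8305 to 9174 CPM on the normal-Mn diet. The part of this list, like that of the lists described last, in the levels of interneuron genes was not tested.

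**Figure D4:**
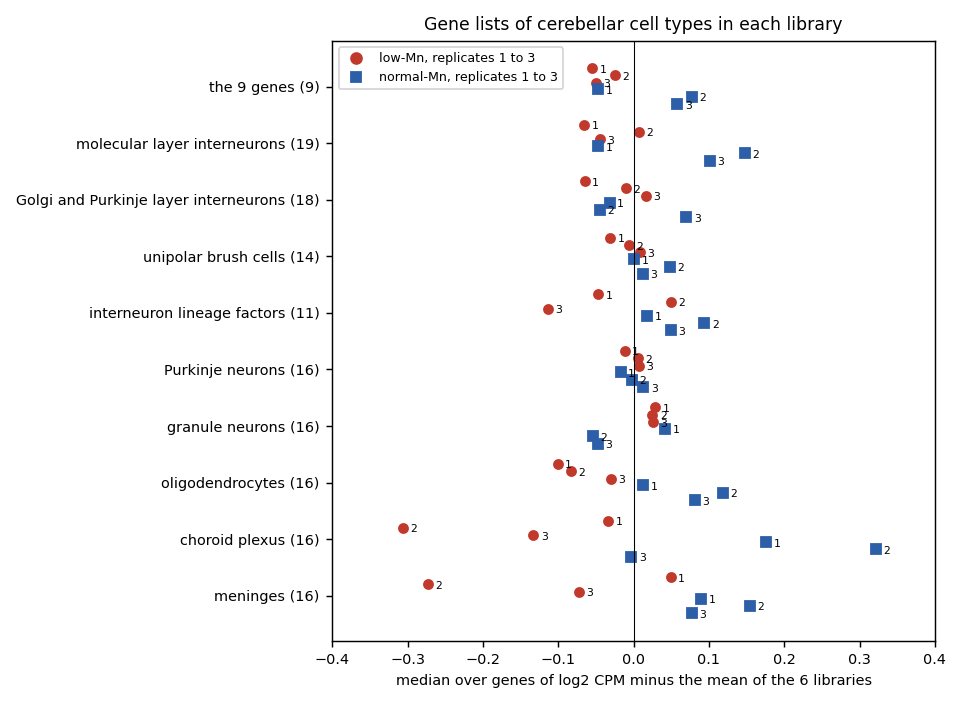
Median over the tested genes of a list (number in brackets) of log2 CPM minus the gene's mean over the 6 libraries, for each low-Mn (red circles) and normal-Mn (blue squares) library, with replicate numbers. In the 9 genes and in the molecular layer interneuron list, normal-Mn replicate 1 lay among the low-Mn libraries (-0.047 in both) and replicates 2 and 3 lay above them.

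Of the 19 genes listed for Golgi cells and other interneurons near the Purkinje layer, with Slc6a5 and Pax2 among them, 18 were tested and none passed. There were 11 with a fold change below 0, and the median log2 fold change was -0.045. Nos1, neuronal nitric oxide synthase, was at 144, 154 and 152 CPM on the low-Mn diet and 174, 162 and 161 CPM on the normal-Mn diet, below in every low-Mn library (log2 fold change -0.14, adjusted p = 0.214 by edgeR). Sst, the neuropeptide somatostatin, was at 1.51, 3.5 and 4.93 CPM against 1.68, 1.43 and 2.11 CPM, high in low-Mn replicates 2 and 3 (log2 fold change 0.93, SE 0.346, adjusted p = 0.269). Chrm2, a muscarinic acetylcholine receptor, was at 3.87 ± 0.813 and 5.44 ± 0.932 CPM (SD, n = 3 each, log2 fold change -0.49, adjusted p = 0.345). Grm2, the metabotropic glutamate receptor of Golgi cells, was at 16.7 ± 1.14 and 17.2 ± 0.606 CPM (log2 fold change -0.04, adjusted p = 0.923).

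The interneuron lineage list held 22 transcription factors of the GABAergic lineages of the hindbrain and cerebellum, not of interneurons alone. Of these, 11 had enough counts to be tested and none passed (median log2 fold change -0.119). Ptf1a, which commits progenitors to the GABAergic lineage, was at a mean of 0.0916 CPM on the low-Mn diet and 0.0181 CPM on the normal-Mn diet. These means rest on counts of 0, 4 and 0 in low-Mn replicates 1 to 3 and 0, 0 and 1 in normal-Mn replicates 1 to 3, too few to be tested. Lbx1, a homeobox factor, was at 6.86, 10.4 and 8.14 CPM on the low-Mn diet and 10.8, 11.9 and 13.1 CPM on the normal-Mn diet, with every low-Mn library below (log2 fold change -0.50, SE 0.148, adjusted p = 0.141 by edgeR). Skor1, a corepressor that binds Lbx1 protein, was at 21.6, 21 and 26.8 CPM against 25.9, 30.6 and 29.3 CPM, with overlap (log2 fold change -0.30, SE 0.0976, adjusted p = 0.188). Both passed only when no filter on low counts was used (adjusted p = 0.0214 for Lbx1 and 0.0395 for Skor1), among the 15 alternatives run.

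Of the 28 genes listed for making, moving and receiving GABA and glycine, which hold Gad1, Gad2, Slc32a1 and Slc6a5, all were tested, 1 rose on the low-Mn diet and none fell. The gene that rose was Slc38a2, which carries glutamine and other small neutral amino acids into many kinds of cells and is regulated by amino acid supply. It was at 274, 258 and 254 CPM on the low-Mn diet and at 219, 217 and 216 CPM on the normal-Mn diet, without overlap (log2 fold change 0.27, SE 0.044, adjusted p = 0.00562 by edgeR). It passed in each of the 15 alternatives, with a log2 fold change of 0.24 to 0.29.

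Slc38a3, a glutamine transporter of astrocytes, was at 72.8, 70 and 73.5 CPM on the low-Mn diet and 79.3, 92.2 and 81.0 CPM on the normal-Mn diet, below in every low-Mn library (log2 fold change -0.22, adjusted p = 0.103). With no filter on low counts Slc38a3 passed as lower (adjusted p = 0.0113 by edgeR), and DESeq2 called a different gene of the 28 as lower. The median log2 fold change of the 28 genes was -0.037.

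Beyond the interneurons, none of the 16 Purkinje neuron genes passed (median log2 fold change 0.016), and 1 of 16 granule neuron genes, the potassium channel subunit Kcnd2, rose (log2 fold change 0.22, adjusted p = 0.0432 by edgeR, median of the list 0.041). Lists of cells outside the neuronal layers held the calls in the downward direction. In the oligodendrocyte list 2 of 16 genes fell, among them Gjc3, a gap junction protein (median -0.142). In the choroid plexus list, Kl, Mfrp and Sostdc1 fell, 3 of 16 (median -0.268), and the list summed to 3603 to 4458 CPM on the low-Mn diet and 4266 to 5154 CPM on the normal-Mn diet. In the meninges list Igf2 fell, 1 of 16 (median -0.206), with sums of 444.8 to 507.3 against 524.3 to 598.9 CPM. Igf2 is expressed in choroid plexus as well.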

How the data were processed

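RNA-seq libraries of polyadenylated RNA from 3 low-Mn and 3 normal-Mn cerebella were grouped by diet as the labels give it. The submitters' processing notes name FastQC, STAR, RSEM, DESeq2 and mm10. Tool versions and the annotation release are not stated in those sources. The authors deposited RSEM expected counts per gene, not normalized, which share ambiguous reads among genes, and 7.13% to 7.75% of values were not whole. The table names normal-Mn columns by dose and replicate and low-Mn columns by number alone; in 6 of 6 libraries, the per-library expression values in the study's supplement matched best the column assigned here. The 92 spike-in entries were 0 and left out, and 53620 of 53715 genes had a symbol by unversioned ID in GENCODE M21.

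Expected counts were rounded, filtered with filterByExpr (minimum count 10, minimum total 15), scaled by TMM and tested with glmQLFit and glmQLFTest of edgeR 4.0.16 in R 4.3.3 (threshold 0.05 after Benjamini-Hochberg adjustment). CPM are TMM-normalized. Intervals are 95% intervals from the fit, and cover the spread between these libraries. Length is the union of annotated exons. Ratios of 2 genes were compared with exact permutation tests. The gene tests were tested on simulated counts. Alternatives used DESeq2 1.42.0, limma 3.58.1 (voom), other scalings and filters, unrounded counts, a replicate block and each library left out. Figures were drawn with matplotlib 3.10.9 in Python 3.11.15.

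The 9 genes, the 13 lists and the rule for naming genes were chosen with earlier results of these data known. The lists were of GABA and glycine transmission, molecular layer interneurons, Golgi and Purkinje layer interneurons, unipolar brush cells, interneuron lineage factors, rhombic lip factors, Purkinje neurons, granule neurons, brain stem and nuclear neurons, oligodendrocytes, choroid plexus, meninges, and T and NK lymphocytes. Named were the 9 genes and, from the lists, genes that passed or were among a list's 3 smallest p values, though not all of these. Further markers were given for their level. The values of 4 genes of these lists are not reported here, although the lists' counts and medians include them.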

Additional observations from a re-analysis of the deposited data

How the results depend on the processing

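Of the 9 genes' log2 fold changes under the alternatives (136 values), 134 kept their direction and did not pass the threshold. The other 2, both of Eomes, passed it anew, and none reversed. Among the 134 are the DESeq2 values of Pax2 and Eomes, which had no adjusted p to set against the threshold. The number of the 9 that passed was 0 in the main fit, 1 with no filter on low counts and 0 to 1 when single libraries were left out. The main fit called 96 genes in all. Without the filter on low counts this came to 424 (218 higher, 206 lower, against 67 and 29), with limma-voom to 63, and to 37 to 93 when single libraries were left out, and upper quartile scaling called 53 higher and 37 lower. Over the 13 lists, with the 9 genes left out, the main fit called 8 genes. This compared with 33 with no filter, 5 with limma-voom and 2 to 9 when single libraries were left out. The cause of these changes was not tested. The difference in the log2 ratio of Gad1 to Gad2 ran from -0.057 to 0.022 when single libraries were left out, and changed sign in 4 of those 6 fits (0.004, 0.006, 0.015 and 0.022). Same-numbered libraries did not deviate together (r = 0.0124, -0.0807 and 0.0806), so the numbers were not read as pairs. With the replicate number as a block, 128 genes passed, 0 of the 9 and 9 in the lists. Adding the counts of Gm14205 to Slc32a1, chosen after seeing the data, changed no call. No other scaling moved the median of all genes by more than 0.012 (log2). The spread of Eomes and the 129 to 226 counts of Pax2 limit what could be detected in those genes.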
